A study of Mus musculus with 30 samples.

Results

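The genes described here encode the subunits of the proteasome and its activators in mouse pancreatic islets. They were taken as the protein-coding genes whose symbol is Psma, Psmb, Psmc, Psmd or Psme followed by a number, without the immunoproteasome genes Psmb8, Psmb9 and Psmb10. Of 54232 gene identifiers in each library, 40 met that rule. They comprise 8 genes of the 20S alpha ring (Psma), 8 of the 20S beta ring (Psmb), 6 ATPases of the 19S particle (Psmc), 11 non-ATPase subunits of the 19S particle (Psmd), 3 factors that assemble it (Psmd5, Psmd9 and Psmd10) and 4 activator genes (Psme).

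RNA was sequenced from islets of male wild-type C57BL/6N mice in 30 libraries. In vivo, 4 libraries came from mice given 1 mM cadmium chloride (CdCl2) for 6 weeks and 5 from their vehicle controls. At 18 weeks, 5 libraries came from mice given 1 mM CdCl2 and 6 from vehicle controls. Isolated islets cultured for 96 hours gave 5 libraries with 0.5 uM CdCl2 and 5 with vehicle. No source used here states how cadmium was dosed or how old the mice were. Islets were isolated on a Biocoll density gradient and the RNA was extracted with Trizol, so each library averages over the endocrine cells and whatever other cells the preparation held.

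The proteasome degrades proteins that carry ubiquitin chains. Its 20S core is a barrel of outer alpha rings and inner beta rings, with the proteolytic sites in the beta rings, and the 19S particle at its ends binds ubiquitin, removes it and unfolds the substrate with a ring of ATPases. Beta cells synthesise and fold large amounts of proinsulin and dispose of misfolded protein partly through this route, and the transcription factor Nfe2l1 raises proteasome genes as a group in cells whose proteasomes are inhibited.

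Differences with cadmium were small, and no gene of the 40 passed the test at 6 weeks, at 18 weeks or in culture. At 18 weeks the beta-ring genes lay above vehicle after library sizes were scaled, by a median of 0.17 on the log2 scale. The ubiquitin receptor Psmd4 was the only gene whose cadmium effect passed a test of the difference between the 18-week and 6-week experiments. Of 20 single-library omissions, 13 removed that call. The levels differed far more between the 3 experiments than with cadmium, by most for genes whose transcripts share long stretches with copies elsewhere in the genome.

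The 6-week libraries held 49564350 to 58366797 counts, those of 18 weeks 9092759 to 51852364 and the cultures 24197072 to 26549350. Among those of 18 weeks, 3 libraries were shallow: cadmium replicate 5 held 21573301 counts, and vehicle replicates 4 and 6 held 14751249 and 9092759. Markers of islet endocrine cells took from 13.97% to 27.0% of the counts over all in vivo libraries. The summed share of 20 acinar genes, which mark the digestive-enzyme cells of the surrounding pancreas, was 3.21, 1.45, 8.41, 17.2 and 5.80% in the cadmium libraries of 18 weeks, against 0.231 to 1.60% in their vehicle libraries; it averaged 5.04 ± 1.68% (SD, n = 4) with cadmium and 3.27 ± 0.740% (SD, n = 5) with vehicle at 6 weeks. In culture the acinar share stayed at or under 0.0144% and in each group 1 of the 20 genes was at 0 in every library. Mt1, a metallothionein that binds cadmium, averaged 279 ± 23.4 and 181 ± 19.4 CPM (counts relative to library size) in cadmium and vehicle cultures (SD, n = 5 each). In vivo the metallothioneins did not part the groups. The summed share of Mt1 and Mt2 was 0.0197 to 0.0277% with cadmium and 0.0156 to 0.0304% with vehicle at 6 weeks. At 18 weeks it was 0.0182 to 0.0303% and 0.00827 to 0.0226%, and in culture 0.0288 to 0.0345% and 0.0181 to 0.0239%.

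Together the 40 genes took 0.193 ± 0.00535% of all counts with cadmium and 0.201 ± 0.00435% with vehicle at 6 weeks (SD, n = 4 and 5). At 18 weeks they took 0.229 ± 0.0274% and 0.239 ± 0.0168% (SD, n = 5 and 6), and in culture 0.288 ± 0.00308% and 0.285 ± 0.00357% (SD, n = 5 each), cadmium and then vehicle. Fewer cells of a type and less RNA per cell cannot be told apart in such bulk samples. In every library, 38 of the 40 genes had more than 5 CPM. Psma8, the alpha subunit of the testis, and Psmb11, the catalytic beta subunit of the thymus cortex, stayed under 1 CPM in every library; both have textbook expression outside the islet. CPM here is computed on library sizes scaled together over the 30 libraries by edgeR's TMM method, and it is not corrected for gene length. The shares above are of unscaled counts. At 18 weeks their mean was lower with cadmium, while most of the genes lay above vehicle after TMM scaling, as given below. The TMM factors were 0.932, 1.04, 0.887, 0.753 and 0.988 in the 18-week cadmium libraries, against 0.901 to 1.07 in vehicle. A lower factor raises a library's CPM.

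**Figure D1:**
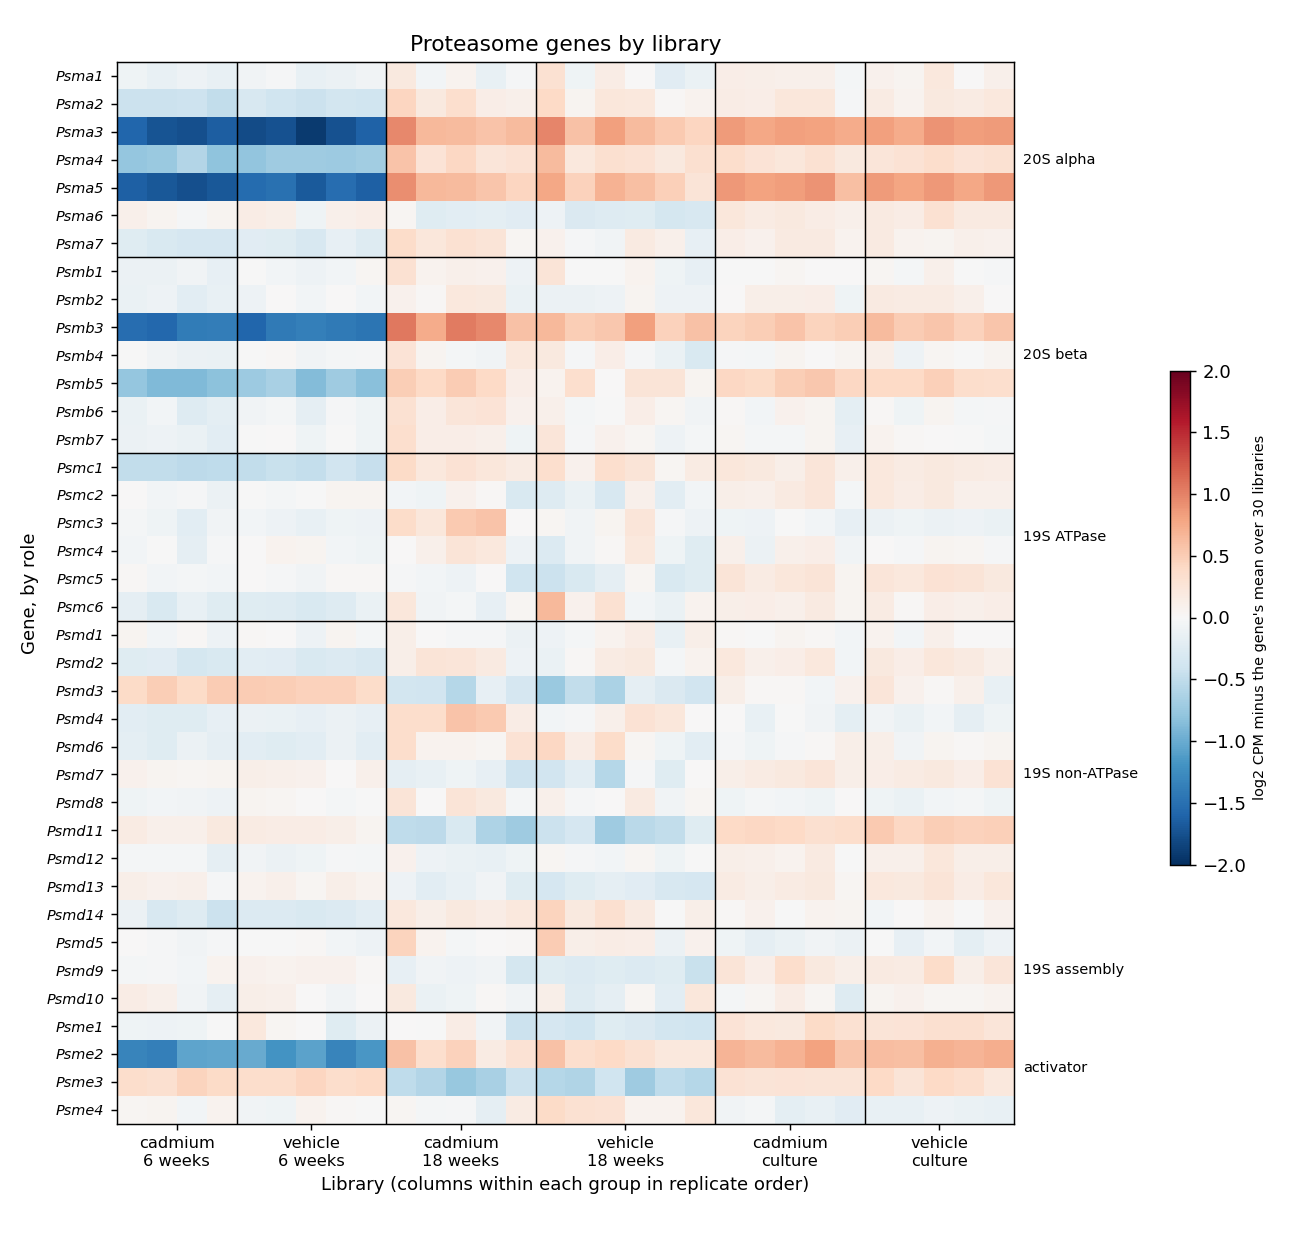
Level of the 38 expressed genes in each of the 30 libraries, as log2 CPM minus the gene's own mean over the libraries (colour, from -2 in blue to 2 in red). Genes are in rows by role, libraries in columns by group; differences between the 3 experiments are visible for Psma3, Psma5, Psmb3, Psme2, Psme3 and Psmd3, and cadmium and vehicle columns of one experiment look alike.

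Per kilobase of exon the order of levels was steady for most genes. In vehicle libraries of 6 weeks, 18 weeks and culture, Psmc5, a 19S ATPase, had 49.7, 42.6 and 59.0 mean CPM per kilobase, and Psmd2, a scaffold of the 19S base, had 37.3, 46.4 and 50.5. Psma6 of the alpha ring had 46.2, 36.4 and 50.1 CPM per kilobase. Lowest among the expressed genes in all 3 was the assembly factor Psmd9, at 2.43, 1.90 and 2.69 CPM per kilobase. The 3 assembly factors had the lowest median of the 6 roles in each experiment (5.18, 5.89 and 4.91 CPM per kilobase), while the medians of the ATPases were 23.3, 24.4 and 24.5. Subunits that sit in the particle in equal numbers were not at equal levels on this scale. Psmb7 had 8.14, 8.58 and 8.39 CPM per kilobase, against 41.5, 41.8 and 42.9 for Psmb4, another beta-ring subunit. The exons of Psmb7 cover 3421 bases but its longest coding transcript 1160, against 1951 and 1183 for Psmb4, so part of that gap lies in the length. About 28.1% of the 50-base words of the Psmb7 transcript also occur in a gene overlapping the same locus. These levels depend on the length used. Over the longest transcript in place of all exons, the assembly factors were again the lowest role (7.996, 7.63 and 8.08) and the ATPases had medians of 29.7, 35.2 and 33.0, but Psmb4 became the highest gene (68.4, 68.9 and 70.7) and Psmd9 (6.69, 5.23 and 7.40) was lowest at 18 weeks and in culture alone.

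At 6 weeks of cadmium no proteasome gene was called by edgeR's quasi-likelihood test at an adjusted p under 0.05, as for all genes (0% of 18080 genes tested were called). Of the 38 genes tested, 33 lay below vehicle and 5 above, with a median log2 difference of -0.04, beside -0.0019 over all genes. DESeq2 likewise called 0 of them. At an unadjusted p under 0.05, 4 were lower and 0 higher, while 449 of all genes were lower and 474 higher. The 4 were Psmb2, Psmb7, Psmd8 and Psmd4.

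Psmb7, which carries the trypsin-like site, had 26.4, 26.7, 26.0 and 24.8 CPM in the cadmium libraries of 6 weeks, against 28.4, 28.7, 26.9, 28.3 and 26.9 CPM in vehicle. No cadmium library reached the lowest vehicle library, though the gap at the edge was small. Its log2 difference was -0.11 ± 0.042 (SE; adjusted p = 0.919, edgeR's quasi-likelihood test), which does not pass. Psmd8, a lid subunit of the 19S particle, had 54.6, 56.2, 55.6 and 54.5 CPM with cadmium, against 60.6, 60.1, 58.2, 56.6 and 57.8 CPM with vehicle. Here too the groups did not overlap, with a log2 difference of -0.09 ± 0.034 (SE). Psmb2, a beta subunit without proteolytic activity, had 46.5, 47.5, 44.1 and 46.3 CPM with cadmium and 47.4, 51.1, 49.4, 51.1 and 49.3 CPM with vehicle. The highest cadmium library overlapped the lowest vehicle library by a small margin on this scale; the log2 difference was -0.11 ± 0.036 (SE). On the CPM of the 6-week libraries scaled alone, 5 of the 38 genes did not overlap and were lower, against 0.719% of all genes, and 0 were higher against 0.73%.

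By role, all 7 beta-ring genes tested at 6 weeks lay below vehicle, with a median log2 difference of -0.09, and 2 of them had an unadjusted p under 0.05. The other catalytic subunits Psmb6, of the caspase-like site, and Psmb5, of the chymotrypsin-like site, differed by -0.09 each. Of the alpha ring, 6 of 7 lay below vehicle, and of the ATPases 5 of 6. The upward difference with the smallest p was that of Psma3, an alpha subunit, at 0.07 ± 0.069 (SE; adjusted p = 0.923 by edgeR's quasi-likelihood test). Psme4, the large activator known as PA200, was at 0.03 and the ATPase Psmc6 at 0.02. Psmd1, the other scaffold of the base, was at -0.01, and Psme1 and Psme2, which together form the PA28 activator ring induced by interferon, were at -0.07 and -0.04. The 95% intervals of the 38 genes all lay between -0.274 and 0.226 on the log2 scale.

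**Figure D2:**
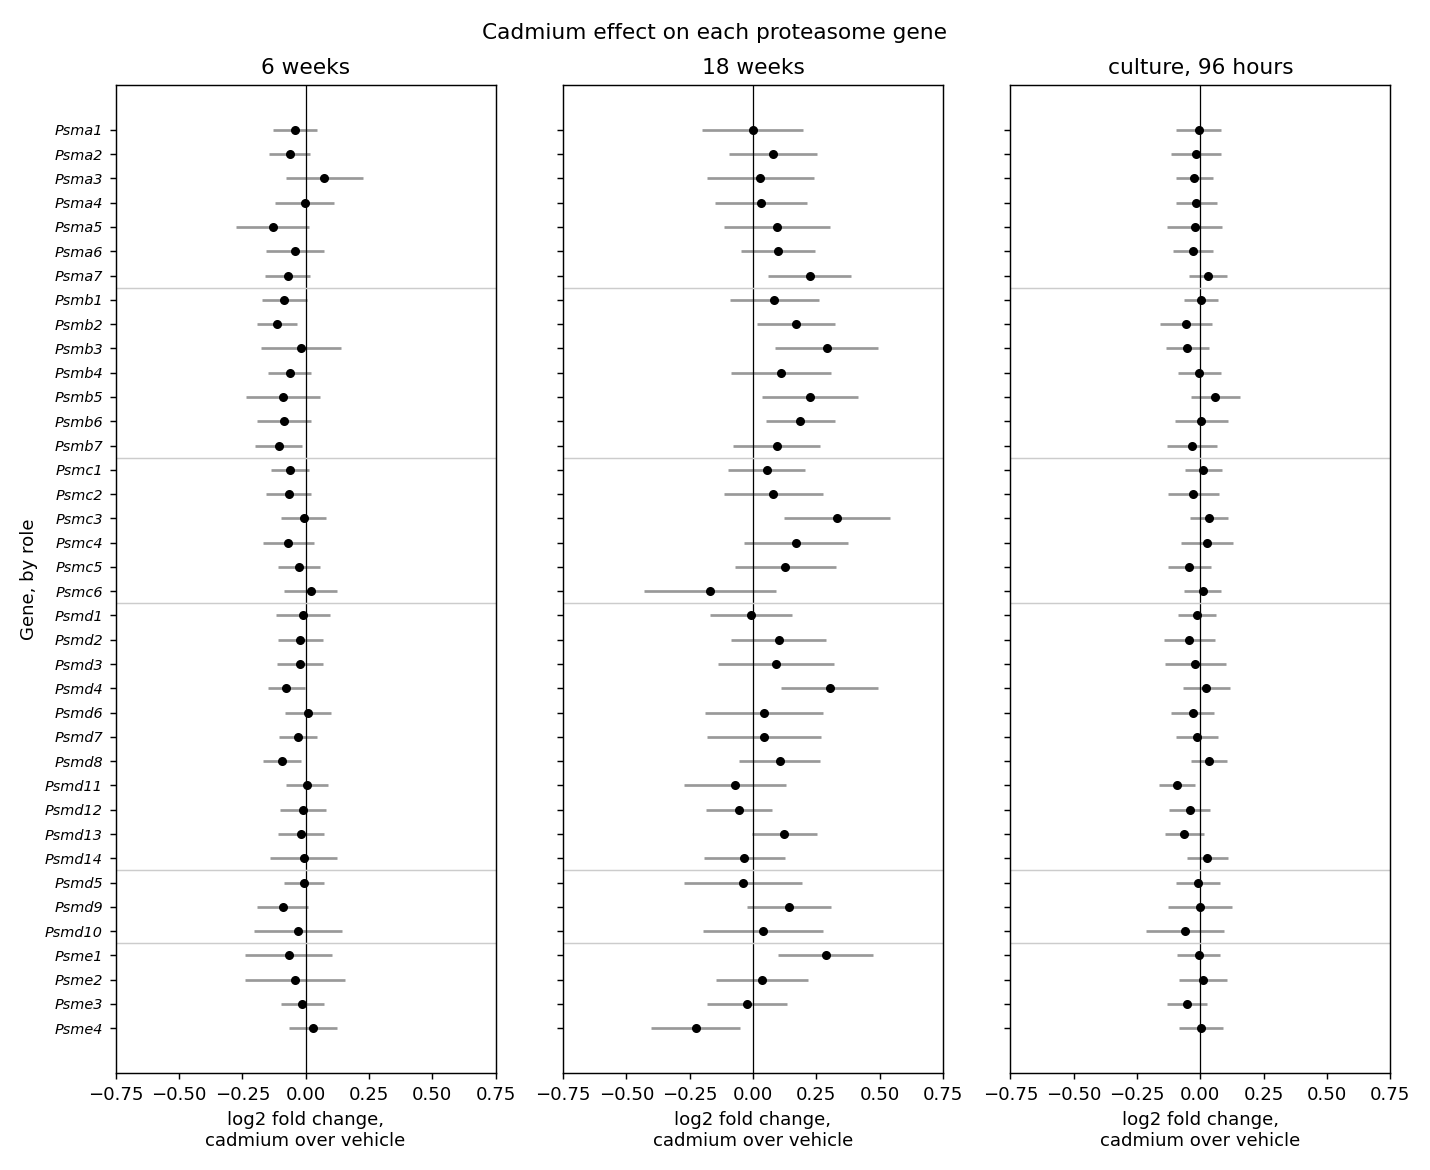
Log2 fold change of cadmium over vehicle for each of the 38 expressed genes at 6 weeks, at 18 weeks and after 96 hours of culture (points), with 95% intervals (bars); grey lines part the 6 roles in the order alpha ring, beta ring, ATPases, non-ATPase subunits, assembly factors and activators. Points gather just left of 0 at 6 weeks, spread to the right at 18 weeks with wider intervals, and lie close to 0 in culture. The fits shown did not use the replicate number as a block.

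At 18 weeks edgeR's quasi-likelihood test called 0 of the 39 proteasome genes tested, and 0.359% of 20911 genes in all (72 higher, 0.344%, and 3 lower, 0.0143%). On library sizes scaled by TMM, 29 of the 39 lay above vehicle and 10 below. The median log2 difference was 0.08, beside 0.00029 over all genes, while the mean share of unscaled counts was lower with cadmium. With these libraries scaled alone, 0 of the 39 were without overlap between the groups, against 0.966% (higher) and 0.603% (lower) of all genes. At an unadjusted p under 0.05, 8 were higher and 1 was lower, against 2241 higher and 1563 lower of all genes. DESeq2 called 1 of them, Psmd4, as higher. When the same contrast was taken from a fit of all 30 libraries, which lends this experiment the smaller spread of the others, 8 were called higher and 1 lower. The share of all genes called in that fit is not reported here. Psma8, at 0.107, 0.0558, 0.241, 0.0803 and 0.235 CPM with cadmium and 0.143 to 0.506 CPM with vehicle (median 0.227), is the gene tested here but not at 6 weeks, since it passed the count filter only in this experiment.

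Psmd4 encodes the 19S subunit that binds ubiquitin chains. Its level was 73.5, 73.5, 85.5, 83.4 and 63.9 CPM in the 18-week cadmium libraries, against 55.8 to 70.3 CPM in the 6 vehicle libraries (median 60.04). Of the 5 cadmium libraries, 4 lay above every vehicle library and replicate 5 lay within their range. The log2 difference was 0.30 ± 0.089 (SE; adjusted p = 0.143, edgeR's quasi-likelihood test).

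Psmc3, a 19S ATPase, had 74.6, 68.2, 83.7, 86.1 and 58.7 CPM with cadmium and 54.2 to 68.6 CPM with vehicle (median 58.6) at 18 weeks. The groups overlapped at replicate 5 and replicate 2 of cadmium, and the log2 difference was 0.33 ± 0.097 (SE; adjusted p = 0.143 by edgeR's quasi-likelihood test). About 6.84% of the Psmc3 transcript's 50-base words also occur in a gene overlapping the same locus. Psme1 had 33.7, 33.3, 37.1, 31.8 and 24.8 CPM with cadmium, against 25.2 to 28.3 CPM with vehicle (median 26.2). Again replicate 5 was the low cadmium library, under all 6 of vehicle, and the other 4 were above them; the log2 difference was 0.29 ± 0.088 (SE). Its ring partner Psme2 was at 0.04.

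Of the 6 roles, only in the beta ring did every gene tested lie above vehicle at 18 weeks, 7 of 7, and 4 of these had an unadjusted p under 0.05. Psmb6 had 78.1, 69.1, 74.7, 76.4 and 67.1 CPM with cadmium, against 59.98 to 69.4 CPM with vehicle (median 63.7), so that 3 cadmium libraries lay above all of vehicle. Its log2 difference was 0.19 ± 0.064 (SE; adjusted p = 0.172, edgeR's quasi-likelihood test). Psmb5 had 24.6, 23.2, 25.1, 23.3 and 19.3 CPM with cadmium and 17.8 to 22.3 CPM with vehicle (median 19.8). Its first 4 cadmium libraries exceeded every vehicle library, at a log2 difference of 0.23 ± 0.088 (SE; adjusted p = 0.215 by edgeR's quasi-likelihood test). Psmb7 was at 0.09. The 2 non-catalytic subunits with an unadjusted p under 0.05 were Psmb3 (0.29) and Psmb2 (0.17), and Psma7 of the alpha ring was at 0.22.

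Psme4 lay the other way. It had 185, 176, 178, 158 and 202 CPM with cadmium at 18 weeks, against 189 to 234 CPM with vehicle (median 215). In 4 of 5 cadmium libraries the level was under all of vehicle, and replicate 5 fell among them. The log2 difference was -0.23 ± 0.082 (SE; adjusted p = 0.191, edgeR's quasi-likelihood test). Psmc6 was at -0.17 and Psma8, on few counts, at -0.92. Psmd1 was at -0.01.

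Among the cadmium libraries of 18 weeks, replicate 1 was the highest in these genes and replicate 5, a shallow library, the lowest. The median deviation of replicate 5 from the vehicle mean over the 38 expressed genes was -0.05 on the log2 scale. That lay within the range of the vehicle libraries, -0.09 to 0.06, while the other 4 cadmium libraries were at 0.23, 0.06, 0.11 and 0.07. Without replicate 5, 2 proteasome genes were called higher at 18 weeks, Psmc3 and Psme1. The share of all genes called without that library is not reported here. Leaving out each other library in turn gave no call, and the median difference was 0.04 without cadmium replicate 1, the library with the highest values. The acinar share was higher in the cadmium group, as given above, and in 4 of its 5 libraries exceeded every vehicle library; with acinar and Reg genes removed before scaling, the median difference was 0.08. The part of acinar RNA and of depth in each gene's difference was not tested.

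**Figure D3:**
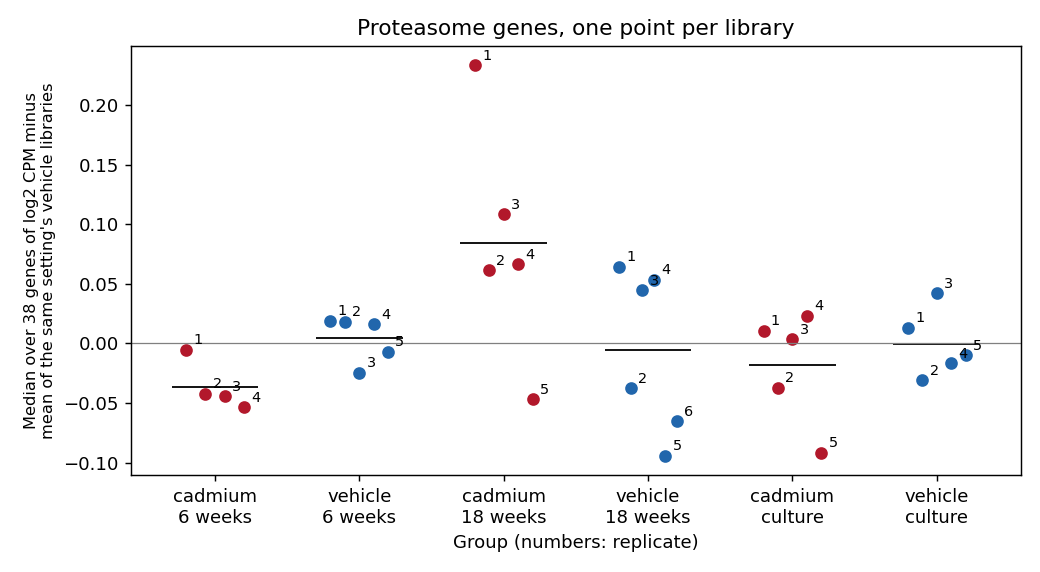
Median over the 38 expressed genes of log2 CPM minus the mean of the same experiment's vehicle libraries, with 1 point per library (red, cadmium; blue, vehicle; number, replicate) and a black line at each group's mean. Cadmium replicate 1 of 18 weeks is the highest at 0.23, cadmium replicate 5 of 18 weeks is at -0.05, and cadmium replicate 5 of culture is at -0.09.

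In islets cultured with cadmium for 96 hours, 0 of 38 proteasome genes were called by edgeR's quasi-likelihood test, and 0.00597% of 16743 genes in all. DESeq2 also called 0. Replicate numbers appeared to pair these libraries; with the replicate number as a block 223 of all genes were called, against 1 without it, and again 0 of the 38. There were 13 above and 25 below vehicle, with a median log2 difference of -0.01, and at an unadjusted p under 0.05 there were 0 higher and 1 lower, against 606 and 314 of all genes. That gene was Psmd11, which ties the lid of the 19S particle to its base. It had 63.8, 63.8, 63.8, 59.99 and 61.4 CPM with cadmium and 69.0, 64.2, 67.9, 66.3 and 66.9 CPM with vehicle. No cadmium library reached the lowest vehicle library on this scale, by a margin of under 1 CPM; with the culture libraries scaled alone, 0 of the 38 genes were without overlap, against 0.328% (higher) and 0.43% (lower) of all genes. The log2 difference was -0.09 ± 0.033 (SE; adjusted p = 0.888 by edgeR's quasi-likelihood test).

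Other small differences in culture were those of the lid subunit Psmd13 (-0.06), of Psme3, which forms the nuclear activator ring PA28 gamma (-0.05), of Psmb5 (0.06), Psmd8 (0.03) and Psmc3 (0.03). Psmb6 was at 0.00, Psmb7 at -0.03, Psmd1 at -0.01, Psme1 at -0.01 and Psme2 at 0.01. All 95% intervals, from the fit without the replicate block, lay between -0.214 and 0.157 on the log2 scale. The median coefficient of variation of the 38 genes was 4.55% in cadmium and 3.68% in vehicle cultures, against 9.87% and 9.66% at 18 weeks and 3.70% and 3.18% at 6 weeks, so that the 18-week comparison was the least precise. In replicates 2 and 5 of the cadmium cultures, 7 of the 38 genes were above the vehicle mean, and in replicate 2 of the vehicle cultures 6 were. Without cadmium replicate 5 the median difference was 0.01.

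Whether the cadmium effect itself differed between experiments was tested as a difference of log2 fold changes in 1 fit of the 30 libraries. Such a fit lends the 18-week experiment the smaller spread of the others, so the p-values of contrasts with 18 weeks may be too small. Between 18 and 6 weeks, 1 of 39 proteasome genes was called, beside 1.68% of 22721 genes in all (0.898% higher and 0.783% lower). This was Psmd4, whose cadmium effect was 0.37 ± 0.093 higher at 18 weeks (SE; adjusted p = 0.0407, edgeR's quasi-likelihood test). In the 6-week libraries it had 49.7, 48.9, 49.0 and 51.7 CPM with cadmium and 53.1, 52.6, 51.6, 53.1 and 51.3 CPM with vehicle, while at 18 weeks 4 of 5 cadmium libraries were above all of vehicle.

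The Psmd4 call depended on single libraries. Leaving out each of the 20 in vivo libraries in turn kept its difference between 0.32 and 0.42, with an adjusted p from 0.00719 to 0.103 by edgeR's quasi-likelihood test, and 13 of the 20 fits no longer called it. Without the 3 shallow libraries, cadmium replicate 5 among them, the adjusted p was 0.00165 and 13 genes were called higher and Psme4 lower. Without cadmium replicate 5 of 18 weeks alone, the counts were 10 and 1. How many of all genes those fits called is not reported here, so the counts are not read as particular to the proteasome genes. At an unadjusted p under 0.05, 13 of the 39 genes had a larger and 1 a smaller cadmium effect at 18 weeks in the full set. Of all 22721 genes, 2652 had a larger and 2186 a smaller effect at that threshold. Next to Psmd4 by p were Psma7 (0.28; adjusted p = 0.0574, edgeR's quasi-likelihood test), Psmb2 (0.27; 0.0599) and Psmb6 (0.26; 0.0680). Psme1 was at 0.35, Psmb5 at 0.30, Psmb7 at 0.19, Psme2 at 0.07 and Psmd1 at -0.01, and the 3 downward differences of smallest p were Psme4 at -0.27, Psmc6 at -0.20 and Psmd11 at -0.08. Age, duration of dosing and the sequencing of each experiment cannot be told apart in this difference.

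Between culture and 6 weeks, 0 of 39 genes differed in cadmium effect by edgeR's test (0% of all genes called), with 0 at an unadjusted p under 0.05 and 0 by DESeq2. The upward differences of smallest p were Psmd8 (0.12), Psmb5 (0.14) and Psma8 (0.87, on few counts), and the downward ones Psmd11 (-0.11), Psma3 (-0.11) and Psmd13 (-0.05). Psmb6 and Psmb7 were at 0.08 and 0.07, Psme1 and Psme2 at 0.05 and 0.04, and Psmd1 at -0.01. Between culture and 18 weeks, 0 were called, beside 0.0176% of all genes (0.0044% higher and 0.0132% lower), and DESeq2 called 0. At an unadjusted p under 0.05, 2 were higher and 8 lower, beside 1264 and 1731 of all 22721 genes. Smallest in p were Psmb3 at -0.34 (adjusted p = 0.183), Psmd4 at -0.28 (adjusted p = 0.202) and Psmd13 at -0.19 (adjusted p = 0.205), all by edgeR's quasi-likelihood test. Upward, they were Psme4 at 0.23, Psma8 at 1.34 and Psmc6 at 0.18. Psmb6 was at -0.18, Psmb5 at -0.17, Psmb7 at -0.12, Psme1 at -0.30, Psme2 at -0.02 and Psmd1 at -0.01. Without the 3 shallow libraries 8 were called lower and 1 higher, and without cadmium replicate 5 of 18 weeks alone 5 were called lower. The shares of all genes called in those fits are not reported here. Each of these differences shares libraries with the others.

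Psmd4 was the only proteasome gene called in these differences, a call that 13 of 20 single-library omissions removed. Its promoter is printed only so that the motif counts below can be read on an example. The sequence runs from 250 bases before to 50 bases after the transcription start at chr3:95042565-95042864 on the minus strand (RefSeq, GRCm38.p6), and capitals mark matches, on either strand, to CCAAT and to CCGGAAG.
Psmd4 promoter: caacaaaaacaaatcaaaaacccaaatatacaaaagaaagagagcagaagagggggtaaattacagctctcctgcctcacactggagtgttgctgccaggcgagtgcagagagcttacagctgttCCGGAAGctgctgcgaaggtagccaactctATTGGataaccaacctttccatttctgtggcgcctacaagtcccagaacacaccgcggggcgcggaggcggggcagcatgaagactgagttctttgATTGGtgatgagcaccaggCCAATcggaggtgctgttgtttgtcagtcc
The window held 3 matches to CCAAT, the site of the factor NF-Y, and 1 to CCGGAAG, the core of ETS-family sites. It also held TGCACNC, a core of the metal response element bound by the zinc-sensing factor Mtf1, which is not capitalised. It held none to TGACNNNGC, the antioxidant response element bound by Nfe2l1 and Nfe2l2. Among the 33 of 40 proteasome genes with a promoter entry, 12 held CCGGAAG (36.4%, against 9.93% of 27025 genes), 13 held CCAAT (39.4% against 41.1%) and 6 held TGACNNNGC (18.2% against 13.99%). Of the metal response element cores TGCACNC and TGCGCNC, 8 held the first (24.2% against 14.2%) and 9 held the second (27.3% against 17.0%). The motifs were searched on both strands in windows of 300 bases. Those matches are letters in a window and not measured binding.

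**Figure D4:**
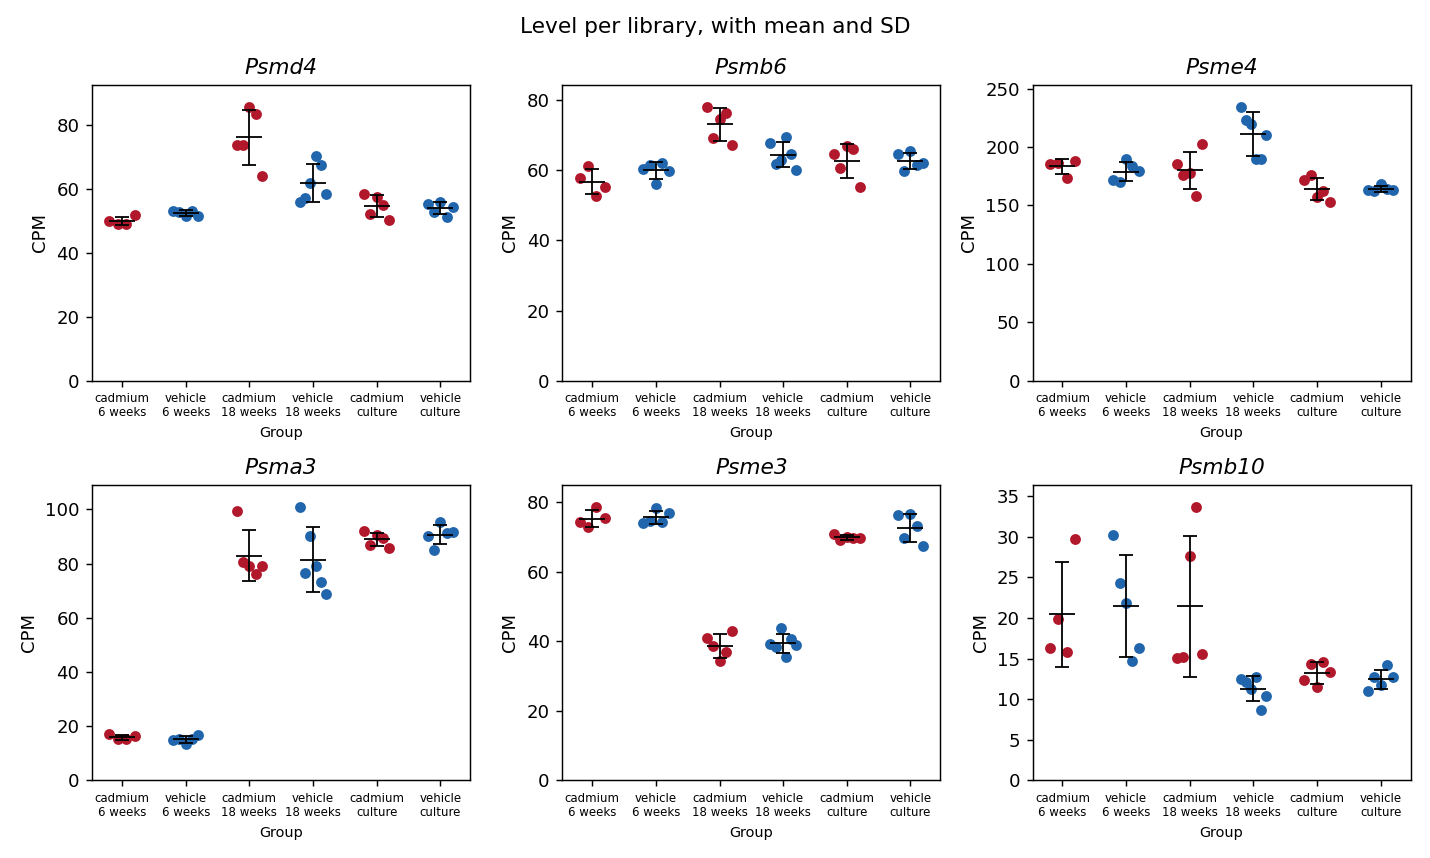
Level in CPM of Psmd4, Psmb6, Psme4, Psma3, Psme3 and Psmb10 in each library (points; red, cadmium; blue, vehicle), with the mean and SD of each group in black and axes from 0. Psmd4 reached 85.5 CPM with cadmium at 18 weeks, Psma3 lay under 20 CPM at 6 weeks in both groups, and Psme3 was lowest at 18 weeks. Psmb10 exceeded 25 CPM in 2 of the 5 cadmium libraries of 18 weeks. At 6 weeks it did so in cadmium replicate 4 and vehicle replicate 1.

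The vehicle libraries alone show how the genes differed between the experiments. These differences mix age, isolation, culture and any difference in sequencing between the experiments, which cannot be told apart. The labels name no sequencing run. For vehicle at 18 weeks over 6 weeks, edgeR's quasi-likelihood test called 15 of 38 genes higher and 10 lower, beside 35.9% and 35.9% of 20551 genes (71.8% in all); 11 lay above and 8 below with no overlap, beside 26.9% and 26.6% of all genes. The largest were Psma3, Psma5 and Psmb3. Psma3, an alpha subunit, had 68.8 to 101.03 CPM in the 18-week vehicle libraries (median 77.8) and 14.8, 15.3, 13.5, 15.3 and 16.6 CPM in those of 6 weeks. The groups lay far apart, by 2.40 ± 0.094 on the log2 scale (SE; adjusted p = 2.09e-11, edgeR's quasi-likelihood test). Psma5 differed by 2.09 and Psmb3 by 2.01, and Psme2 by 1.45. Psma4 (1.03), Psmb5 (0.89), Psmc1 (0.62) and Psma2 (0.51) followed.

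The other 7 genes called higher at 18 weeks, among them Psmd4 and Psme4 at 0.20 each, differed by 0.20 to 0.45. Lower at 18 weeks were Psme3 (-0.97 ± 0.056, SE), the lid subunits Psmd3 (-0.94), Psmd11 (-0.62), Psmd13 (-0.39) and Psmd7 (-0.35), the assembly factor Psmd9 (-0.39), Psma6 (-0.38), Psme1 (-0.36) and the ATPases Psmc5 (-0.26) and Psmc2 (-0.19). Psme3 had 35.5 to 43.9 CPM in the 18-week vehicle libraries (median 39.1), against 74.1 to 78.5 CPM at 6 weeks, with no overlap. Psmb6, Psmb7 and Psmd1 did not pass, at 0.07, 0.04 and -0.02. With DESeq2 the median of all genes itself stood at 0.33, and without a count filter at 0.17, so small differences here depend on the scaling.

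For vehicle culture over vehicle 6 weeks, 25 genes were called higher and 2 lower (33% and 34.8% of 17605 genes, 67.8% in all). In 24 the groups did not overlap and culture was higher, and in 1 it was lower, beside 26% and 27% of all genes. All 7 alpha-ring genes tested were among the 25, with a median of 0.57, as were 4 of the beta ring and 4 of the ATPases. Psma3 differed by 2.61, Psma5 by 2.43, Psmb3 by 2.02, Psme2 by 1.84, Psmb5 by 1.18, Psma4 by 1.05, Psmc1 by 0.65 and Psma2 by 0.57. Psmd3 (-0.37) and Psme4 (-0.10) were lower; the call of Psme4 had an adjusted p of 0.0309 by edgeR's quasi-likelihood test. Psmb6 passed at 0.09 and Psme1 at 0.32. Psmb7 and Psmd1, at 0.07 each, and Psmd8, at -0.06, did not pass.

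For vehicle culture over vehicle 18 weeks, 15 were called higher and 6 lower (30.6% and 36.6% of 18449 genes, 67.2% in all). With no overlap there were 10 higher and 3 lower, beside 23.2% and 27.5% of all genes. Psmd11 (0.90 ± 0.075, SE) and Psme3 (0.85 ± 0.061, SE) led the 15, ahead of Psme1 (0.59), Psmd3 (0.48), Psmd9 (0.46), Psmd13 (0.44), Psmc5 (0.44) and Psma6 (0.42). Psmb5 (0.19) and Psme2 (0.29) passed as well. Lower were Psme4 (-0.40), Psmd5 (-0.30), Psmd4 (-0.23), Psmd14 (-0.23), the deubiquitinase of the lid, Psmc3 (-0.17) and Psmd8 (-0.15). Psmb6 and Psmb7, at -0.07 each, and Psmd1, at -0.01, did not pass. With DESeq2 the median of all genes stood at -0.28 here and at 0.14 for culture over 6 weeks. Each of the 3 vehicle groups enters 2 of these comparisons.

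Most of the genes that were lowest at 6 weeks share a feature of sequence. Each transcript was divided into overlapping words of 50 bases, and the share of words found in transcripts of genes at other loci was counted. It was 22.0% for Psma3, 54.5% for Psma5, 55.8% for Psmb3, 59.3% for Psme2, 50% for Psmb5 and 25.6% for Psma4, and 0% for Psmd4, Psmd3, Psme3 and Psme4. Not every gene followed. Psmd11 (18.9%) and Psme1 (14.1%) were called lower in vehicle at 18 weeks than at 6 weeks, and Psma2 (3.53%) was called higher. The copies are mostly processed pseudogenes, and a read from a shared stretch fits gene and copy equally well. Stretches of 60 coding bases are printed beside the best copy to show how close they are (GENCODE M21 transcripts on GRCm38; capitals mark the bases that differ within a pair, and a pair without capitals is identical).
Psma3, bases 104 to 163 of the coding sequence, gene at chr12:70974621-70996347: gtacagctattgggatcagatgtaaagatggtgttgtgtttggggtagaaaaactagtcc
Gm13835, chr6:31141979-31142663: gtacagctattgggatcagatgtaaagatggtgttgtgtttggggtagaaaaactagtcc
Psma5, bases 1 to 60 of the coding sequence, gene at chr3:108256926-108279974: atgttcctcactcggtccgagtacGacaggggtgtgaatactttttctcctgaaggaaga
Gm8394, chr10:85313488-85314439: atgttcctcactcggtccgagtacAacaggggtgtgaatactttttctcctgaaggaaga
Psmb5, bases 263 to 322 of the coding sequence, gene at chr14:54614119-54618022: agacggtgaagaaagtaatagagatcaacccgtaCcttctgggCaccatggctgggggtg
Gm3375, chr7:3181093-3181888: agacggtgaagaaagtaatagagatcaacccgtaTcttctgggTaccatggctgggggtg

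Psma3 and Gm13835 were identical at 97.5% of 682 aligned bases with an unbroken identical run of 662. Psma5 and Gm8394 matched at 98.9% of 723 bases, with a longest run of 248. For Psmb5 and Gm3375 the longest identical run was 194 bases.

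Grouped by that share, 10 expressed genes had over 10% of their words elsewhere. For vehicle at 18 weeks over 6 weeks their median log2 difference was 0.96, with 8 called higher and 2 lower. The 24 genes with under 1% had a median of -0.02, with 5 called higher and 8 lower, and the 4 genes between had a median of 0.26. For vehicle culture over 6 weeks the median was 1.11 for the genes over 10%, with 10 of 10 called higher. It was 0.20 for the 4 genes between, and 0.10 for the 24 genes under 1%, with 12 called higher and 2 lower. For vehicle culture over 18 weeks the median of the genes over 10% was 0.15. The copies' own deposited counts were low: those of Psma3 averaged 1.54 ± 0.159 CPM, here on the unscaled library total, in vehicle at 18 weeks (SD, n = 6) and 1.38 ± 0.261 in vehicle at 6 weeks (SD, n = 5), and those of Psma5 0.236 ± 0.0865 and 0.0492 ± 0.0229. How reads that fit several places were counted is not given in the sources used here, and its part in these differences was not tested. The grouping was chosen after the values were seen.

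The cadmium comparisons stay within 1 experiment each, and there the 3 groups of genes lay close together. At 6 weeks the medians were -0.03 for over 10%, -0.07 for 1 to 10% and -0.03 for under 1%, and at 18 weeks they were 0.07, 0.08 and 0.09.

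**Figure D5:**
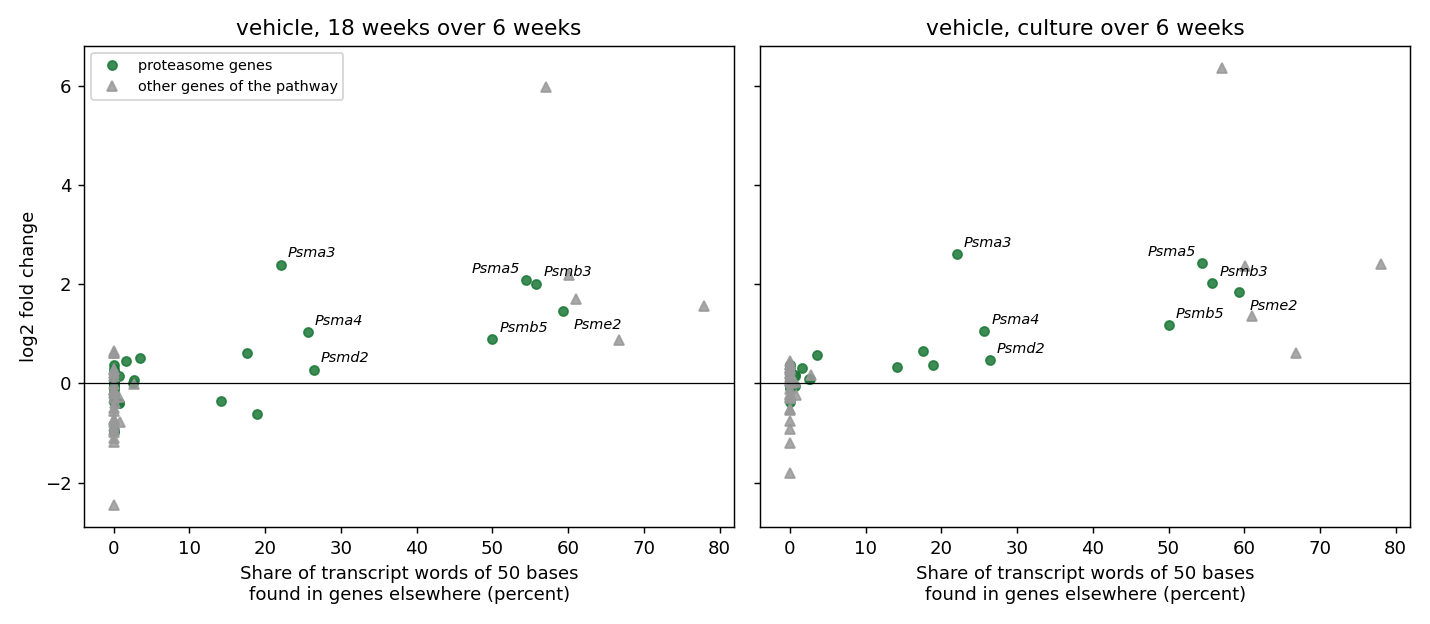
Log2 fold change between vehicle groups, 18 weeks over 6 weeks (left) and culture over 6 weeks (right), against the share of each transcript's 50-base words that occur in genes at other loci, in percent. Circles are proteasome genes, with those over 20% named, and triangles are other genes of the pathway; the named circles lie between 0.28 and 2.61 and most genes near 0% lie between -1 and 1.

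Of the other genes of the pathway, 32 were examined: assembly chaperones, proteasome partners, immunoproteasome subunits, regulators, ubiquitin genes, activating enzymes and shuttles. With cadmium, edgeR's quasi-likelihood test called 0 of them in each of the 3 experiments; DESeq2 called 0 at 6 weeks and in culture and 2 at 18 weeks, Psmb9 and Psmb10. At an unadjusted p under 0.05, the 6-week comparison had 0 higher and 0 lower, that of 18 weeks 5 higher and 2 lower, and the cultures 0 higher and 3 lower. Of all 18080 genes tested at 6 weeks, 474 were higher and 449 lower. At 18 weeks 2241 and 1563 of 20911 were, and in culture 606 and 314 of 16743. Nfe2l1 differed with cadmium by 0.05 at 6 weeks, 0.05 at 18 weeks and -0.05 in culture, and Pomp, the maturation chaperone of the core, by -0.04, -0.04 and -0.02.

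Psmb10, Psmb9 and Psmb8 replace the catalytic subunits Psmb7, Psmb6 and Psmb5 in the immunoproteasome, which interferon gamma induces and immune cells carry. In the 6-week libraries Psmb10 had 16.3, 19.9, 15.8 and 29.7 CPM with cadmium and 30.2, 24.3, 21.8, 14.7 and 16.4 CPM with vehicle. At 18 weeks Psmb10 had 15.1, 15.2, 27.6, 33.7 and 15.5 CPM with cadmium, against 8.64 to 12.7 CPM with vehicle (median 11.7). The groups did not overlap (0.966% of all genes were higher with no overlap), and replicates 3 and 4 were far above the other 3. The log2 difference was 0.93 ± 0.21 (SE; adjusted p = 0.0829 by edgeR's quasi-likelihood test). DESeq2 gave an adjusted p of 0.00211, and without cadmium replicate 1, 2 or 5 the edgeR test also called it (adjusted p = 0.0409, 0.0338 and 0.0423). Psmb9 had 7.51, 9.41, 12.0, 8.59 and 5.92 CPM with cadmium and 5.15 to 6.80 CPM with vehicle (median 5.57), at 0.61 ± 0.16 (SE; adjusted p = 0.108 by the same edgeR test and 0.0118 by DESeq2), and Psmb8 was at 0.38 ± 0.14 (SE; adjusted p = 0.193).

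Lymphocyte, macrophage and acinar markers each moved in part with the immunoproteasome genes. The summed share of 10 lymphocyte genes was 0.000363, 0.00666, 0.00986, 0.000977 and 0.000468% in the 18-week cadmium libraries, against 0.00034 to 0.00222% in vehicle. Each of the 10 genes had a count in at least 1 library of both groups. Replicates 2 and 3 with cadmium were above all of vehicle and replicate 4, which had the highest Psmb10, was not. For 10 macrophage genes, none at 0 throughout a group, the summed share was 0.0121, 0.0193, 0.0145, 0.0110 and 0.0102% with cadmium and 0.00956 to 0.0121% with vehicle, so replicates 2 and 3 were again above all of vehicle. The acinar share and Psmb10 were both highest in replicate 4, next in replicate 3 and then in replicate 5. The part of these 3 shares in the immunoproteasome values was not tested. At 6 weeks Psmb8, Psmb9 and Psmb10 were at -0.23, -0.16 and -0.08, and in culture at 0.01, 0.04 and 0.09. The difference of cadmium effects between 18 and 6 weeks was 1.00 for Psmb10, 0.76 for Psmb9 and 0.60 for Psmb8, with adjusted p of 0.0629, 0.0711 and 0.0897 by edgeR's quasi-likelihood test. All 3 of these differences were called without cadmium replicate 5 of 18 weeks, also without the 3 shallow libraries that include it, and without vehicle replicate 4 of 6 weeks.

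Between vehicle groups the pathway genes differed in both directions. At 18 weeks over 6 weeks, edgeR's quasi-likelihood test called 11 of the 32 higher and 15 lower, beside 35.9% and 35.9% of all genes. The 5 genes with over 10% of their words at other loci were all higher, with a median of 1.70. Among them were Rps27a (5.97) and Ubb (1.70), which encode ubiquitin, the unfolding ATPase Vcp (2.19) and the ubiquitin receptor Adrm1 (1.56); for Rps27a 57.0% of words occur elsewhere. The other 6 called higher were Sem1 (0.66), Uba6 (0.62), Psmg4 (0.60), Rad23b (0.29), Uchl5 (0.28) and Ngly1 (0.21).

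Among those lower at 18 weeks over 6 weeks were the shuttle factors Ubqln2 (-2.46), Ubqln4 (-1.09) and Ubqln1 (-0.49), the immunoproteasome genes Psmb10 (-0.97), Psmb9 (-0.95) and Psmb8 (-0.71), and the regulators Nfe2l1 (-0.86) and Nfe2l2 (-0.29). Also lower were the assembly chaperone Psmg3 (-1.17), the ubiquitin-activating enzyme Uba1 (-0.78), the Vcp cofactors Nploc4 (-0.74) and Ufd1 (-0.28), and the inhibitor Psmf1 (-0.56). Pomp was at -0.02 and did not pass.

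In vehicle culture over 6 weeks, 15 of the 32 were called higher and 12 lower, beside 33% and 34.8% of all genes. The same 5 genes with copies were higher, with a median of 2.37, at 6.37 for Rps27a, 2.40 for Adrm1, 2.37 for Vcp and 1.36 for Ubb. Higher too were Sem1 (0.45), the proteasome deubiquitinases Usp14 (0.40) and Uchl5 (0.28), Nfe2l2 (0.37), the chaperones Psmg1 (0.32), Psmg4 (0.30), Psmg2 (0.22) and Pomp (0.17), Rad23b (0.18) and Psmf1 (0.13). Those lower included Psmb8 (-1.21), Psmg3 (-0.93), Psmb10 (-0.76), Ubqln2 (-0.53), Psmb9 (-0.51), Ubqln1 (-0.28), Ubqln4 (-0.28), Uba1 (-0.23), Nploc4 (-0.23), Ngly1 (-0.20) and Akirin2 (-0.10), which carries proteasomes into the nucleus. Nfe2l1 did not pass, at 0.09.

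In vehicle culture over 18 weeks, 13 of the 32 were called higher and 8 lower, beside 30.6% and 36.6% of all genes. Higher were Ubqln2 (1.83), Nfe2l1 (0.85), Adrm1 (0.74), Ubqln4 (0.71), Psmf1 (0.60), Nfe2l2 (0.56), Uba1 (0.45), Nploc4 (0.41), Psmb9 (0.34), Usp14 (0.31), Rps27a (0.30), Psmg2 (0.30) and Ufd1 (0.22). Those lower included Uba6 (-0.66), Psmb8 (-0.59), Ngly1 (-0.51), Ubb (-0.44), Psmg4 (-0.40), Sem1 (-0.32) and Rad23b (-0.21). Psmb10 (0.11) and Pomp (0.09) did not pass.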

How the data were processed

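Islet RNA was sequenced in 30 libraries of 6 groups. Per the submitters' processing notes, the tools were cutadapt 1.13, STAR, HTSeq 0.6.1p1 and DESeq2 with the mm10 genome; no source used here gives the settings for strand or for reads that fit several places. The authors deposited raw read counts per Ensembl gene for each library, and these whole-number counts were used as deposited. Of 54232 identifiers, 54079 took a symbol from GENCODE M21; the 153 without one took no more than 0.0172% of counts in any library.

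Each comparison of 2 groups was fitted to its own libraries with edgeR 4.0.16 in R 4.3.3 (quasi-likelihood test, filterByExpr with a minimum count of 10 and a minimum total of 15, TMM scaling). Benjamini-Hochberg adjustment ran over all genes tested, and a call is an adjusted p under 0.05. Differences of cadmium effects came from 1 edgeR fit of all 30 libraries. Alternatives were DESeq2 1.42.0, DESeq2-type (RLE) scaling, no count filter, the replicate number as a block, 1 fit of 30 libraries, acinar and Reg genes left out, the shallow libraries left out and each library left out. In simulated counts with known changes of 1 or 2 log2 units, edgeR's test recovered 97% of genes changed by 1 unit in the 18-week cadmium comparison. There 20492 genes were tested and 100 were changed by that size. Recovery was 99% at 6 weeks (17851 tested) and 100% in culture (16552 tested). Smaller changes, of the size seen here with cadmium, were not simulated, so their recovery is not known.

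Replicate numbers were checked as a pairing over 14282 genes. In culture, cadmium and vehicle libraries of the same number deviated together in all 5 pairs (correlation of deviations 0.127 to 0.394). The numbers were thus taken to pair them, on the evidence of the data alone. With that block 0 proteasome genes were called in culture, as without it. The SE, intervals and p-values printed for culture come from the fit without the block and so leave out the pairing. No 2 libraries of a group held equal counts: over 61 pairs the lowest chi-square per degree of freedom was 2.77. Nothing in the labels says that libraries came from separate animals or cultures, so p-values cover only library-to-library spread, part of which may be technical.

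Named in each comparison were up to 8 called members by p in each direction, or the 3 of smallest p in a direction with fewer than 3 calls, and always Psmb5, Psmb6, Psmb7, Psmd1, Psme1 and Psme2; of the other pathway genes, those called and always Nfe2l1, Pomp, Psmb8, Psmb9 and Psmb10. Other genes were named after their values were seen. Members and lists were chosen with earlier results of these data known. Some pathway genes that enter the counts are not reported here by name.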

Additional observations from a re-analysis of the deposited data

Results flagged for a closer look

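Of 228 sets of 1 gene in 1 group that were examined, 20 held a library far from the others by Dixon's ratio of the gap to the range; chance gives about 1 in 20. Cadmium replicate 1 of 18 weeks was the high library for 4 genes, Psma3 (99.4 CPM), Psma6 (55.1 CPM), Psmd5 (52.1 CPM) and Psmd12 (64.0 CPM). Vehicle replicate 3 of culture was the high library for 3, Psma6 (66.7 CPM), Psmd12 (70.9 CPM) and Psme4 (168 CPM). The other high libraries were cadmium replicate 1 of 6 weeks for Psmc5 (70.9 CPM), cadmium replicate 4 of 6 weeks for Psme1 (33.2 CPM), vehicle replicates 4 and 5 of 6 weeks for Psmd6 (75.9 CPM) and Psmd14 (35.6 CPM), vehicle replicates 1 and 4 of 18 weeks for Psma4 (62.96 CPM) and Psmb2 (52.8 CPM), and vehicle replicate 1 of culture for Psma7 (76.8 CPM). The low libraries were cadmium replicate 4 of 6 weeks for Psmd12 (53.6 CPM), cadmium replicate 5 of culture for Psma1 (67.1 CPM), vehicle replicates 3, 4 and 5 of 6 weeks for Psma6 (50.8 CPM), Psmd7 (56.1 CPM) and Psmd9 (17.1 CPM), and vehicle replicate 6 of 18 weeks for Psmd9 (12.3 CPM).

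The cadmium effect on Psmd4 differed between 18 and 6 weeks by 0.37 on the log2 scale in edgeR's quasi-likelihood test. At 18 weeks 4 of 5 cadmium libraries lay above all 6 of vehicle, and at 6 weeks 3 of 4 cadmium libraries lay below all 5 of vehicle.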

How the results depend on the processing

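Cadmium comparisons kept 0 called members at 6 weeks and in culture under every alternative run. At 18 weeks DESeq2 called 1 member higher, a fit of all 30 libraries 8 higher and 1 lower, and single omissions 0 to 2 higher. For the difference of cadmium effects between 18 and 6 weeks, DESeq2 called 6 higher and 1 lower, no count filter 0, omission of the shallow libraries 13 higher and 1 lower, and single omissions 0 to 10 higher and 0 to 1 lower. For culture minus 18 weeks, omission of the shallow libraries gave 1 higher and 8 lower, and single omissions gave 0 to 5 lower and medians of -0.12 to -0.032. The cause was not tested, and the shares of all genes called under these alternatives are not reported here. The 3 shallow libraries of 18 weeks are cadmium replicate 5 and vehicle replicates 4 and 6, so comparisons between vehicle groups lose only the 2 of vehicle.

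The replicate number as a block called 3 members higher for 18 minus 6 weeks, Psmb2, Psmc3 and Psmd4. Outside culture the replicate numbers are numbers alone: deviations of same-numbered libraries correlated at -0.143 to 0.251 at 6 weeks, -0.0805 to 0.370 at 18 weeks and -0.180 to 0.263 between vehicle groups. No other count of called members moved by more than 1.5 times under the block.

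The 6-week cadmium median of the members ranged from -0.059 to -0.026 over single omissions. For vehicle culture over 6 weeks the median of 0.18 was 0.14 without a count filter, 0.15 in a fit of all 30 libraries and 0.10 over genes with under 1% of words elsewhere, and called lower were 1 in the fit of all 30 libraries and 1 to 2 with single omissions. For vehicle 18 weeks over 6 weeks the median of 0.05 was 0.12 by DESeq2, 0.12 with RLE scaling, 0.10 in a fit of all 30 libraries, -0.02 over genes with under 1% of words elsewhere and 0.025 to 0.11 with single omissions. The restriction by words elsewhere was chosen after seeing the data.

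Other sign changes, outside single omissions, were these. Psmd1 with cadmium at 18 weeks was 0.020 with the block and 0.090 without the shallow libraries, and Psmb6 with cadmium in culture was -4.58e-05 in a fit of all 30 libraries. Psmd1 in vehicle culture over 18 weeks was 0.016 by DESeq2, 0.025 without a count filter, 0.015 with the block, 0.021 in a fit of all 30 libraries and 0.085 without the shallow libraries. In vehicle 18 weeks over 6 weeks Psmd1 was 0.030 by DESeq2, 0.047 with RLE scaling, 0.018 in a fit of all 30 libraries and 0.0027 without acinar genes; Pomp was 0.031, 0.045, 0.019 and 0.000699 in the same order and 0.048 without the shallow libraries; Psmb7 was -0.013 without a count filter. For 18 minus 6 weeks Psmd1 was 0.022 with the block and 0.082 without the shallow libraries, and Nfe2l1 was 0.025 without them. For culture minus 6 weeks Pomp was -0.023 with the block. For culture minus 18 weeks Psmd1 was 0.0097 by DESeq2, 0.017 with RLE scaling, 0.0098 without a count filter and 0.0087 without acinar genes.

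Single omissions also crossed 0 for small differences. With cadmium at 6 weeks the ranges were -0.0028 to 0.051 for Psmc6, -0.039 to 0.016 for Psmd1, -0.096 to 0.016 for Psme2 and -0.32 to 0.070 for Psmb10. At 18 weeks they were -0.040 to 0.024 for Psmd1, -0.014 to 0.086 for Psme2 and -0.10 to 0.021 for Pomp. In culture they were -0.022 to 0.051 for Psmb6, -0.052 to 0.0050 for Psmb7, -0.032 to 0.0085 for Psmd1, -0.032 to 0.013 for Psme1, -0.021 to 0.044 for Psme2, -0.039 to 0.023 for Pomp, -0.026 to 0.060 for Psmb8 and -0.020 to 0.094 for Psmb9. Between vehicle groups they were -0.058 to 0.052 for Psmd1 and -0.082 to 0.061 for Pomp (18 weeks over 6 weeks), and -0.046 to 0.016 for Psmd1 (culture over 18 weeks). For 18 minus 6 weeks they were -0.046 to 0.021 for Psmd1, -0.034 to 0.0059 for Nfe2l1 and -0.083 to 0.055 for Pomp. For culture minus 6 weeks they were -0.032 to 0.019 for Psmd1, -0.013 to 0.11 for Psme1, -0.012 to 0.11 for Psme2 and -0.0078 to 0.064 for Pomp. For culture minus 18 weeks they were -0.019 to 0.043 for Psmd1, -0.078 to 0.048 for Psme2 and -0.045 to 0.10 for Pomp. Over the values of single genes, counts over all genes and levels per length, 4135 kept their direction and side of the threshold and 124 changed sign.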
